A study of Mus musculus with 9 samples.

Results

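Around the central vein of the liver lobule, hepatocytes keep a gene program that depends on Wnt signaling. Endothelial cells of the central vein release Wnt ligands and the R-spondin Rspo3. The ligands bind Frizzled receptors with Lrp5 or Lrp6, and β-catenin then escapes breakdown and acts with the DNA-binding factor Tcf7l2 on its target genes. In the hepatocytes nearest the vein, these targets include enzymes and carriers that turn ammonia and glutamate into glutamine. Other targets, such as Axin2, Rnf43 and Znrf3, dampen the pathway again, and R-spondins bound to Lgr4 or Lgr5 hold Rnf43 and Znrf3 back. The 10 genes described here are Glul, Oat, Slc1a2, Rhbg, Slc13a3, Tbx3, Axin2, Lgr5, Rnf43 and Znrf3. They were chosen by symbol, and all 10 were found among the 21873 genes of the mRNA table.

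The study followed male C57BL/6 mice, aged 8 weeks at the start, through liver fibrosis and its reversal. Thioacetamide (TAA), a hepatotoxin that pericentral enzymes turn into its reactive form, was injected intraperitoneally into the mice of the TAA group (3 mice) and the recovery group (3 mice). A dose of 200 mg/kg was repeated at intervals of 3 days over 8 weeks, and the control group (3 mice) received normal saline. Control and TAA livers were taken 72 h after the last injection, and recovery livers after 8 further weeks without injections. Recovery mice were thus older than control mice, and age and earlier TAA cannot be told apart in that comparison. Whole liver RNA of the 9 mice was sequenced, at an estimated 26.9 to 40.8 M fragments per library.

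All libraries carried hepatocyte RNA in abundance. Alb, which encodes serum albumin, was at 26759 to 30373 scaled FPKM in control libraries, 17378 to 23280 in TAA libraries and 33874 to 36663 in the recovery group. FPKM are fragments per kilobase of gene and M mapped fragments, and scaled FPKM were divided by a library factor that brings most genes to the same level. A pair of libraries stood apart from their own groups in markers of other tissues, and the source of this RNA was not tested. In TAA 3, all 5 skeletal muscle markers were above 0 and summed to 33.1 scaled FPKM, with Acta1 highest at 19.8. The same sum was 0.0655 in TAA 1, 0.0746 in TAA 2, 0.0101 in recovery 2 and 0 in the other 5 libraries, and Myh2, Myh4 and Myl1 were at 0 in every library but TAA 3. In recovery 3, all 5 adrenal cortex markers were above 0 and summed to 5.32 scaled FPKM, with Hsd3b1 highest at 1.73, against 0.537 in recovery 1 and 0.527 in recovery 2. This sum was 0.406, 1.26 and 0.621 in control 1 to 3 and 3.52, 4.37 and 6.38 in TAA 1 to 3, where most of it came from Cyp21a1. Cyp11a1, which starts steroid synthesis, was at 0.618 in recovery 3 and at 0 in every other library. The results below are therefore also given without these libraries where that changed a call.

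The groups were compared with limma on log2(scaled FPKM + 0.1), over 14094 genes. A differentially expressed gene (DEG) passed FDR < 0.05 with its levels at least 2 times apart. All 10 members passed the filter of a mean FPKM of at least 0.1. The scaling matters for every small difference that involves the TAA group: relative to control libraries, it lowers TAA libraries by 0.64 log2 units and recovery libraries by 0.08. Where a member's log2 fold change turns with the scaling, this is said beside it. Genes given by their levels alone were not followed in this way, and a difference smaller than this shift, such as those of Alb, Lrp6, Kremen1 or Cyp1a2 below, can turn.

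In the TAA group, 5 of the 10 members were DEGs against the control group: Slc1a2, Oat, Glul and Rhbg fell and Slc13a3 rose. Of all tested genes, 8.02% were lower DEGs, 17.0% higher DEGs and 25.0% DEGs in either direction. The split was 1 member higher and 4 lower, and 2 higher and 4 lower with FPKM as deposited, since Axin2 then passed a fold change of 2. Over all tested genes, the split of 2389 higher and 1131 lower became 4382 and 421 with FPKM as deposited and 1597 and 1311 with quantile normalization. At FDR < 0.05 alone, 8 members were called, against 54.5% of all genes. The median log2 fold change of the members was -0.79 (0.02 with FPKM rescaled to the same sum in each library), against 0.02 over all tested genes (0.83 with the same sum). With FPKM as deposited these medians were -0.16 and 0.63.

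In the recovery group, 5 members were DEGs against the TAA group, all of them higher: Slc1a2, Oat, Glul, Rhbg and Tbx3. Among all tested genes, 7.12% were higher DEGs, 14.3% lower DEGs and 21.4% DEGs in either direction. With FPKM as deposited, 4 members were higher and 1 lower, and with quantile normalization 6 were higher and 1 lower. Over all tested genes, the split of 1003 higher and 2014 lower became 409 and 3728 with FPKM as deposited, 315 and 5064 with FPKM rescaled to the same sum in each library, and 1171 and 1407 with quantile normalization. Without TAA 3 and recovery 3, the libraries with muscle or adrenal markers, 6 members were DEGs, because Slc13a3 then passed the fold change of 2. Adjusted p alone was under 0.05 for 7 members and 50.5% of all genes. The median of the members was 0.87, against -0.01 over all tested genes, and 0.33 against -0.55 with FPKM as deposited. Both comparisons share the TAA libraries, so that each gene's values are set side by side and no agreement between the comparisons is read from them.

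Against the control group, 1 member was a DEG in the recovery group, Oat, which was lower. The share of all tested genes was 0.412% for lower, 0.582% for higher and 0.993% for either direction. These are 82 higher and 58 lower genes, which became 15 and 24 without recovery 3, the library with adrenal markers, 15 and 17 without recovery 2, and 20 and 16 without control 3. A single fit of all 9 libraries gave 151 higher and 84 lower genes. Other choices gave fewer: 49 and 36 with moderation without a trend, 27 and 21 without a filter on low values, and 9 and 8 with the mouse number as a block. Oat and Slc1a2 were the 2 members called at FDR < 0.05 alone, against 2.70% of all genes. Without recovery 3, 45 genes in place of 381 passed this FDR, and with all 9 libraries in 1 fit 855 did. The median of the members was -0.05 and that of all tested genes 0.01.

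**Figure D1:**
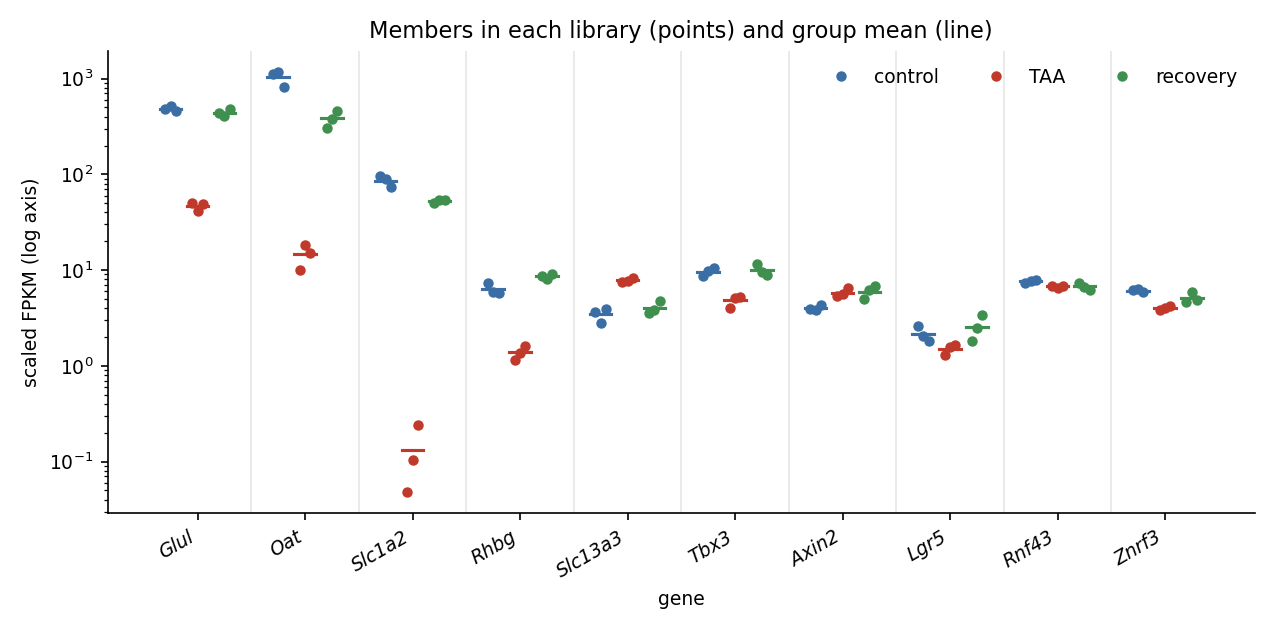
Scaled FPKM of the 10 members on a log axis, with a point for each library, a line for the mean of each group of 3 and colors for the control, TAA and recovery groups. Glul, Oat, Slc1a2 and Rhbg drop in the TAA libraries, from a control mean of 86.0 to 0.132 for Slc1a2, while Rnf43 stays between 6.14 and 7.86 in all 9 libraries, although with FPKM as deposited it is higher in the TAA libraries (8.68 to 9.46) than in the others (5.57 to 6.90).

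Glul (ENSMUSG00000026473, chr1:153899944-153909723 on the plus strand of mm10) encodes glutamine synthetase, which joins ammonia to glutamate and in liver marks the innermost rings of pericentral hepatocytes. Its scaled FPKM was 484, 514 and 456 in control 1 to 3, 50.3, 40.9 and 49.2 in TAA 1 to 3, and 439, 405 and 478 in recovery 1 to 3. Every TAA library was far below every other library, and the control and recovery libraries overlapped. Glul fell in the TAA group with a log2 fold change of -3.37 (95% interval -3.63 to -3.12, adjusted p = 1.99e-06 in limma) and kept 9.66% of the control mean. It was -2.74 with FPKM as deposited, -2.55 with the same sum and -2.59 with quantile normalization. It rose again in the recovery group by 3.23 over the TAA group (2.97 to 3.50, adjusted p = 3.67e-06), where its mean was 90.9% of the control mean. Against the control group the log2 difference of the recovery group was -0.14 (interval -0.37 to 0.09, adjusted p = 0.434). In whole liver RNA, fewer cells that express a gene and less RNA of that gene per cell cannot be told apart, and this holds for every member.

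Oat (ENSMUSG00000030934, chr7:132557478-132576398, minus strand) encodes ornithine aminotransferase, a mitochondrial enzyme that turns ornithine toward glutamate. It was the most abundant member in the control group, with 1129, 1178 and 808 scaled FPKM in control 1 to 3, against 10.04, 18.43 and 15.18 in TAA 1 to 3 and 308, 378 and 464 in recovery 1 to 3. The ranges of the 3 groups were separate, with the recovery group between the others. Oat fell by 6.17 on the log2 scale in the TAA group (standard error 0.24, adjusted p = 3.58e-06 in limma), to 1.40% of the control mean (-5.54 with FPKM as deposited, -5.35 with the same sum), and rose by 4.73 in the recovery group over the TAA group (standard error 0.23, adjusted p = 8.89e-06). The return was partial: the recovery mean was 36.9% of the control mean, with a log2 fold change of -1.44 (interval -1.93 to -0.95, adjusted p = 0.0270). This last call did not hold when any 1 of the 6 libraries was left out, with log2 fold changes of -1.61 to -1.29 and adjusted p of 0.0551 to 0.107 in limma. It was also lost without a filter on low values (adjusted p = 0.0716 in limma) and with the mouse number as a block (adjusted p = 0.0860 in limma).

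Slc1a2 (ENSMUSG00000005089, chr2:102658659-102790784, plus strand) encodes a glutamate carrier of the cell membrane, known from astrocytes and present in the same pericentral hepatocytes as Glul. Its scaled FPKM was 95.4, 88.4 and 74.3 in control 1 to 3, 0.0481, 0.105 and 0.243 in TAA 1 to 3, and 50.1, 54.1 and 53.6 in recovery 1 to 3. All 3 TAA libraries were far below every other library, TAA 3 being the highest of them, and the recovery libraries lay together below the lowest control library. From the estimated depth, the TAA values stand for about 32.9, 70.8 and 170 fragments, against 27900 to 35204 in the control libraries. Slc1a2 had the largest change of the members, a log2 fold change of -8.62 (interval -9.29 to -7.95, adjusted p = 2.19e-06 in limma), which the added 0.1 makes smaller than the ratio of the means: the TAA mean was 0.153% of the control mean, and 0.0889% without TAA 3, the library with muscle markers. The rise in the recovery group over the TAA group was 7.91 (7.28 to 8.55, adjusted p = 3.67e-06). Recovery libraries held 61.1% of the control mean, with a log2 fold change of -0.70 (-0.95 to -0.46, adjusted p = 0.0304 in limma), which was under the fold change of 2. With 1 library left out the adjusted p was 0.0373 to 0.107.

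Promoter windows of 300 bases, from 250 before to 50 after a transcript start (RefSeq, GRCm38.p6), were given for 6 of the 10 members, Glul, Oat, Slc1a2, Slc13a3, Axin2 and Rnf43, the last with 2 windows. They were searched on both strands for ATCAAAG, the core letters that Tcf7l2 and Lef1 bind, and for its shorter part TCAAAG, which every longer match also holds. Of all 32851 windows, 1225 (3.73%) held the longer and 5257 (16.003%) the shorter motif. Among the members only the Slc1a2 window held either, the longer motif 207 bases before the start and a further match to the shorter motif, on the other strand, 77 bases before it. The upstream bases of the 3 members that fell most are shown, read 5′ to 3′ along the gene up to the RefSeq start or, for Slc1a2, up to an exon annotated before it (GENCODE M21), with a match to ATCAAAG in capitals. The Slc1a2 stretch lies within the gene, since this start is 47779 bases inside the first annotated one, and an exon of another transcript covers the match at 77 bases.
Slc1a2, chr2:102706188-102706355, plus strand: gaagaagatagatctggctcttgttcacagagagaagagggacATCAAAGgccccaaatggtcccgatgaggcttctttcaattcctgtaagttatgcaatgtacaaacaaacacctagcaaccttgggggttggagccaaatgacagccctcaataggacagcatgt
Glul, chr1:153899679-153899928, plus strand: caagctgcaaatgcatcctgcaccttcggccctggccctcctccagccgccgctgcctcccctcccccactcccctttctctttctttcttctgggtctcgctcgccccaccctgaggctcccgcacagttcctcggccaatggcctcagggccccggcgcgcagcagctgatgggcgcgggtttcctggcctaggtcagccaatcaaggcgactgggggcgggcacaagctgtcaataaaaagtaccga
Oat, chr7:132576399-132576648, minus strand: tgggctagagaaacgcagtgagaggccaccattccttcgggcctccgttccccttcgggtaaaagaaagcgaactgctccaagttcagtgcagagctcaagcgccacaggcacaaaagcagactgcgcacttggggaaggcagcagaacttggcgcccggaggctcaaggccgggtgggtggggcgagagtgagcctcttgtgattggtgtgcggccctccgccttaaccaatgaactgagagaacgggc
The windows also differed in base composition. The Slc1a2 window had 45.7% G and C and 1 CG pair, whereas the windows of Glul and Oat had 64.3% and 61.7% with 17 and 22 CG pairs, against a median of 52.7% and 7 CG pairs over all windows. A match is a description of the letters and not a measured binding site, and no match says only that the letters are not in that window.

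Rhbg (ENSMUSG00000104445, chr3:88242874-88254709, minus strand) encodes an ammonia carrier of the Rhesus family. The scaled FPKM of Rhbg was 7.42, 5.93 and 5.80 in control 1 to 3, 1.14, 1.38 and 1.63 in TAA 1 to 3, and 8.73, 8.05 and 9.01 in recovery 1 to 3. All TAA libraries were below the other groups, and all recovery libraries were above the control group. Rhbg fell in the TAA group with a log2 fold change of -2.13 (standard error 0.17, adjusted p = 4.93e-05 in limma), which was -1.52 with FPKM as deposited and -1.37 with the same sum. It rose by 2.56 in the recovery group over the TAA group (standard error 0.15, adjusted p = 1.45e-05). Its recovery mean was 135% of the control mean, a log2 difference of 0.43 that did not pass (adjusted p = 0.105). Of the 1937 exonic bases of Rhbg, 61.4% also belong to Gm38392, a longer annotated gene on the same strand, so the split of reads between them is uncertain. Gm38392 was at 0.486, 1.31 and 0.673 scaled FPKM in control 1 to 3, 0.249, 0.269 and 0.429 in TAA 1 to 3, and 0.538, 0.636 and 0.894 in recovery 1 to 3.

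Slc13a3 (ENSMUSG00000018459, chr2:165405028-165473230, minus strand), a carrier that brings dicarboxylates such as succinate into the cell together with sodium, went the other way. It had 3.65, 2.82 and 3.88 scaled FPKM in control 1 to 3, 7.60, 7.76 and 8.22 in TAA 1 to 3, and 3.55, 3.80 and 4.70 in recovery 1 to 3. The TAA libraries were all above the rest, and control and recovery libraries overlapped. Slc13a3 rose in the TAA group by 1.18 (standard error 0.14, adjusted p = 0.000326 in limma), and also with FPKM as deposited, by 1.80. The recovery group was lower than the TAA group by a log2 fold change of -0.96 (interval -1.26 to -0.66, adjusted p = 0.000588), just under the fold change of 2. The call was made without recovery 3, the library with adrenal markers and the highest Slc13a3 of its group (-1.08), and with FPKM as deposited (-1.51).

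Tbx3 (ENSMUSG00000018604, chr5:119670669-119684724, plus strand) encodes a T-box transcription factor that marks the pericentral hepatocytes. Its levels were 8.67, 9.87 and 10.5 scaled FPKM in control 1 to 3, 3.99, 5.16 and 5.30 in TAA 1 to 3, and 11.6, 9.58 and 8.82 in recovery 1 to 3. The TAA libraries were below all others, and the control and recovery libraries overlapped. In the TAA group the log2 fold change of -0.997 (interval -1.32 to -0.67, adjusted p = 0.000764 in limma) was just short of a fold change of 2. It passed without control 1 (-1.07), TAA 2 (-1.05) or TAA 3 (-1.07), and it was -0.37 with FPKM as deposited. Tbx3 rose by 1.04 in the recovery group over the TAA group (interval 0.69 to 1.40, adjusted p = 0.000939), a call that was lost without TAA 1 (0.91), without recovery 1 (0.93), with a pseudocount of 1 (0.92), with FPKM as deposited (0.49) and with FPKM rescaled to the same sum (0.29, adjusted p = 0.160 in limma).

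Axin2, Lgr5, Rnf43 and Znrf3 act within the Wnt pathway itself, and with scaled FPKM none of them was a DEG in any comparison. Axin2 (ENSMUSG00000000142, chr11:108920349-108950783, plus strand) encodes a scaffold of the complex that breaks down β-catenin and is a widely used readout of the pathway. Axin2 was at 3.88, 3.87 and 4.32 scaled FPKM in control 1 to 3, 5.35, 5.61 and 6.45 in TAA 1 to 3, and 4.97, 6.18 and 6.74 in recovery 1 to 3. All TAA and all recovery libraries were above the control group and overlapped with each other. The log2 fold change in the TAA group was 0.52 (interval 0.24 to 0.79, adjusted p = 0.00718 in limma), under the fold change of 2, which it passed with FPKM as deposited (1.14). For recovery libraries it was 0.55 against control libraries (interval 0.22 to 0.87, adjusted p = 0.0848) and 0.03 against the TAA group (-0.29 to 0.36, adjusted p = 0.860), the last turning to -0.52 with FPKM as deposited.

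Lgr5 (ENSMUSG00000020140, chr10:115450311-115587780, minus strand), a receptor for R-spondins, was the least abundant member in the control and recovery groups. Its scaled FPKM was 2.58, 2.03 and 1.83 in control 1 to 3, 1.30, 1.57 and 1.66 in TAA 1 to 3, and 1.84, 2.50 and 3.37 in recovery 1 to 3. The TAA libraries were lower than the others by a narrow gap, and the highest value was that of recovery 3, the library with adrenal markers. The log2 fold change in the TAA group was -0.48 (interval -0.88 to -0.07, adjusted p = 0.0501 in limma), which turned to 0.13 with FPKM as deposited and was -0.92 with quantile normalization. Between recovery and TAA libraries it was 0.70 (interval 0.18 to 1.21, adjusted p = 0.0320), 0.55 without TAA 3 and recovery 3, and -0.03 with FPKM rescaled to the same sum. With quantile normalization it was a DEG there (1.10, adjusted p = 0.00506 in limma), and with 1 library left out the adjusted p was 0.00838 to 0.101.

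Rnf43 and Znrf3 encode membrane ubiquitin ligases that remove Frizzled receptors from the cell surface. Rnf43 (ENSMUSG00000034177, chr11:87662722-87735539, plus strand) was at 7.42, 7.62 and 7.86 scaled FPKM in control 1 to 3, 6.85, 6.58 and 6.87 in TAA 1 to 3, and 7.38, 6.70 and 6.14 in recovery 1 to 3. Znrf3 (ENSMUSG00000041961, chr11:5276324-5444847, minus strand) was at 6.16, 6.29 and 5.86 in control 1 to 3, 3.82, 4.02 and 4.27 in TAA 1 to 3, and 4.70, 5.83 and 4.84 in recovery 1 to 3. For Rnf43 the TAA and recovery libraries overlapped just below the control group, and for Znrf3 the 3 groups were separate, with the TAA group lowest. The log2 fold change of Rnf43 in the TAA group was -0.17 (interval -0.38 to 0.03, adjusted p = 0.137 in limma), and 0.46 with FPKM as deposited. That of Znrf3 was -0.59 (interval -0.82 to -0.35, adjusted p = 0.00204), and 0.04 with FPKM as deposited, so that neither has a direction that all scalings share. Between recovery and TAA libraries Znrf3 had 0.33 (0.05 to 0.62, adjusted p = 0.0531), which turned to -0.22 with FPKM as deposited. Rnf43 had -0.01 (-0.25 to 0.23, adjusted p = 0.9502 in limma), and -0.56 with FPKM as deposited and -0.77 with the same sum.

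**Figure D2:**
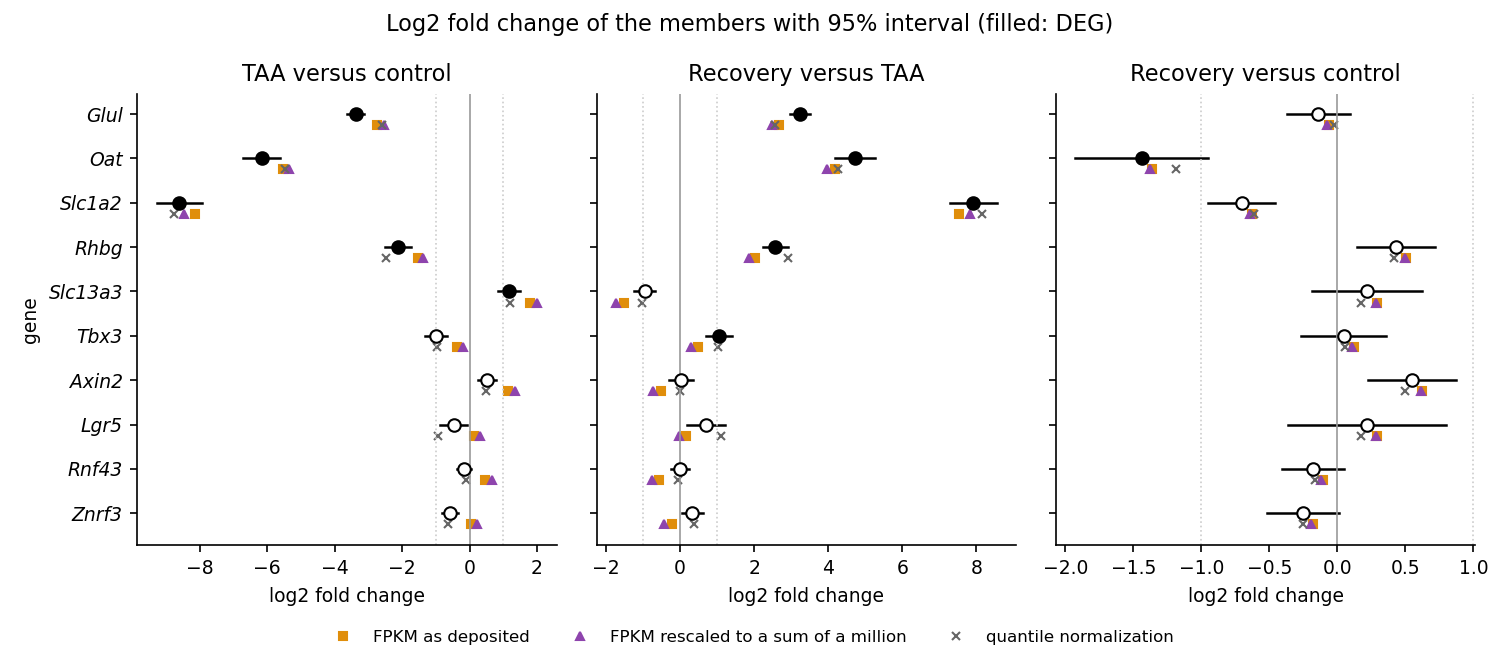
Log2 fold changes of the 10 members (circles, filled for DEGs) with 95% intervals (bars) in the 3 comparisons, 3 against 3 libraries each, with small marks for 3 other scalings and dotted lines at a fold change of 2. Slc1a2, at -8.62, Oat, Glul and Rhbg lie left of the line in TAA versus control under every scaling, while Lgr5, Rnf43 and Znrf3 change side between scalings.

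Ratios of genes within a library do not depend on the library factor, and Axin2 served as the common denominator. The Glul to Axin2 ratio was 106 to 133 in control, 7.30 to 9.41 in TAA and 65.4 to 88.3 in recovery libraries. For Slc1a2 the ratio was 17.2 to 24.6, 0.00899 to 0.0377 and 7.94 to 10.1, and for Oat 187 to 305, 1.88 to 3.29 and 61.1 to 68.8, in the same order. These enzyme and carrier genes thus dropped relative to Axin2 in each TAA library and stood below the control range in each recovery library. The Slc13a3 to Axin2 ratio was 0.729 to 0.942 in control, 1.28 to 1.42 in TAA and 0.614 to 0.714 in recovery libraries. The Lgr5 to Axin2 ratio was 0.425 to 0.664, 0.243 to 0.280 and 0.369 to 0.499, and the Znrf3 to Axin2 ratio 1.36 to 1.63, 0.662 to 0.716 and 0.718 to 0.944. The ratios show unequal change of the genes and not that Axin2 itself was steady. Axin2 was at 3.87 to 4.32 scaled FPKM in control and 5.35 to 6.45 in TAA libraries. A gene with steady scaled FPKM would thus also have a lower ratio in the TAA group. How many of all genes have ratios separate between these groups was not computed, so separate ratios are not read as a result about the members.

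**Figure D3:**
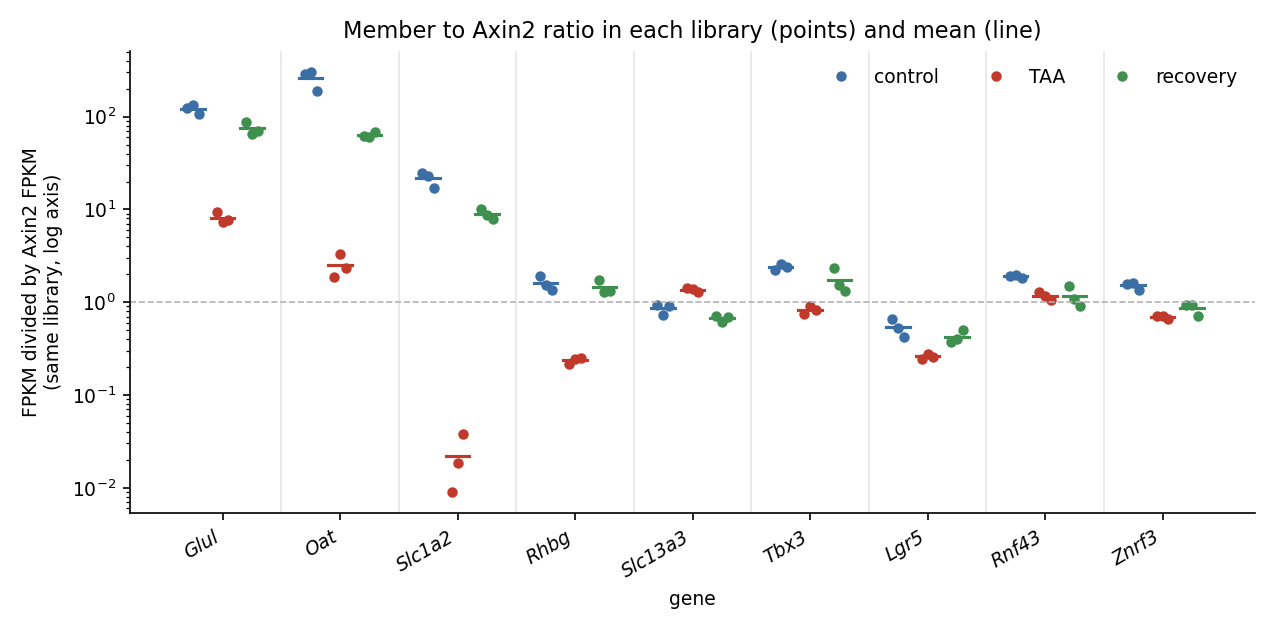
FPKM of 9 members divided by the FPKM of Axin2 in the same library, on a log axis, with a point for each of the 9 libraries and a line for the mean of each group. The Glul to Axin2 ratio drops from at least 106 in the control group to at most 9.41 in the TAA group, and only Slc13a3 has higher ratios in the TAA group, 1.28 to 1.42.

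The order of the members by mean scaled FPKM changed between the groups. In the control group it was Oat (1038), Glul (485), Slc1a2 (86.0), Tbx3 (9.66), Rnf43 (7.63), Rhbg (6.38), Znrf3 (6.10), Axin2 (4.02), Slc13a3 (3.45) and Lgr5 (2.15). Rhbg and Znrf3, and Axin2 and Slc13a3, overlapped over their libraries, and the other neighbors did not. In the TAA group Glul (46.8) came before Oat (14.6), followed by Slc13a3 (7.86), with Slc1a2 (0.132) last. In the recovery group Glul (441) and Oat (383) overlapped at the top, and Slc1a2 (52.6) again came next. Spread between mice of a group differed by member. The coefficient of variation was lowest for Rnf43 in the TAA group (2.45%) and was 5.99% for Glul in the control group. For Oat it was 19.3%, 29.1% and 20.4% in the control, TAA and recovery groups, and for Lgr5 29.9% in the recovery group. It was highest for Slc1a2 in the TAA group (75.9%), where levels were lowest.

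The genes that feed the pathway were examined by role, from lists fixed by symbol. Of the ligands, R-spondins and secretion factors, 13 of 25 genes passed the filter, of which 5 rose and 0 fell in the TAA group. The median log2 fold change of the list was 0.34 (0.90 with FPKM as deposited, -0.24 with quantile normalization). With quantile normalization the calls were 3 higher and 3 lower. The ligands of the central vein are known to include Wnt2, Wnt9b and Rspo3. Wnt2 was at 2.27, 4.14 and 2.44 scaled FPKM in control 1 to 3, 2.26, 1.78 and 2.18 in TAA 1 to 3, and 3.71, 3.59 and 3.51 in recovery 1 to 3. Rspo3 was at 2.27, 2.80 and 2.55 in control 1 to 3, 2.50, 2.66 and 2.54 in TAA 1 to 3, and 2.11, 2.78 and 3.02 in recovery 1 to 3, with all groups overlapping. Wnt9b was at 0.504 to 0.675 in control, 0.692 to 0.885 in TAA and 0.951 to 1.34 in recovery libraries, and Rspo1 at 0 to 0.358 in all libraries. None of these 4 was a DEG in any comparison.

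The 5 genes of this list that rose in the TAA group were Wnt11, Wnt7b, Wnt4, Wnt5a and Wls. Wnt5a, a ligand best known for signaling without β-catenin, was at 0.440, 0.367 and 0.298 scaled FPKM in control 1 to 3, 1.39, 0.998 and 1.27 in TAA 1 to 3, and 0.617, 0.664 and 0.840 in recovery 1 to 3. The TAA libraries were above all others, and the log2 fold change was 1.49 (standard error 0.20, adjusted p = 0.000668 in limma). Wls, the carrier that brings Wnt ligands to the cell surface and the most abundant gene of the list, was at 2.29 to 2.74 in control, 4.61 to 6.25 in TAA and 3.07 to 3.82 in recovery libraries. Its log2 fold change of 1.07 in the TAA group was 0.98 without TAA 1, which ends the call. Wnt11 was at 0 to 0.0130 in control and 0.545 to 0.964 in TAA libraries, and Wnt7b at 0 to 0.0396 and 0.306 to 0.510. None of these 5 genes remained a DEG with a pseudocount of 1.

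Of the receptors and co-receptors, 14 of 16 passed the filter, of which 4 rose and 1 fell in the TAA group, with a median of -0.21 (0.43 with FPKM as deposited). With quantile normalization, and also with a pseudocount of 1, 1 rose and 1 fell. Fzd8 fell, from 4.19, 5.02 and 4.96 scaled FPKM in control 1 to 3 to 1.26, 1.13 and 1.51 in TAA 1 to 3, and was at 2.60, 3.87 and 3.70 in recovery 1 to 3. The 3 groups were separate, and the log2 fold change in the TAA group was -1.79 (standard error 0.15, adjusted p = 6.85e-05 in limma). Fzd3 and Fzd9 were among the 4 that rose, and Fzd1 was the most abundant of these, at 3.06 to 3.50 in control, 5.81 to 9.14 in TAA and 4.67 to 4.94 in recovery libraries. Lgr4, the R-spondin receptor of most hepatocytes, was at 21.3 to 26.2, 12.4 to 14.1 and 16.3 to 17.9 in the 3 groups, and Lrp6, the most abundant gene of the list, at 28.6 to 31.2, 18.3 to 22.9 and 24.5 to 27.4. Fzd7 was a DEG only in the recovery group over the TAA group, with a log2 fold change of 1.09 (standard error 0.13, adjusted p = 0.000304 in limma). This was under 1 with FPKM as deposited, and Fzd7 was also no DEG with a pseudocount of 1. Its mean scaled FPKM was 7.56 in control, 4.57 in TAA and 9.85 in recovery libraries.

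Among inhibitors, 5 of 13 genes passed the filter, and 3 of them, Frzb, Sfrp1 and Dkk3, rose in the TAA group (2 of them with a pseudocount of 1), with a median of 1.72. Frzb, which binds Wnt ligands outside the cell, was at 0.290, 0.657 and 0.568 scaled FPKM in control 1 to 3, 4.29, 3.34 and 3.85 in TAA 1 to 3, and 0.653, 0.814 and 0.898 in recovery 1 to 3. The TAA libraries were far above the rest, and the log2 fold change of 2.75 (standard error 0.26, adjusted p = 0.000120 in limma) was followed by -2.15 in the recovery group over the TAA group (standard error 0.17, adjusted p = 4.93e-05). Kremen1, the most abundant gene of the list, was at 5.20 to 5.83 in control, 3.59 to 4.11 in TAA and 4.99 to 5.14 in recovery libraries and was no DEG. All 15 genes of the cytoplasmic and nuclear core were tested, and 1 of them, Pygo1, was a DEG in the TAA group (0 with a pseudocount of 1), with a mean of 0.374 scaled FPKM (SD 0.109, n = 3) against 0.0541 in the control group (SD 0.0273, n = 3). Ctnnb1, which encodes β-catenin and was the most abundant of these, was at 58.7 to 65.2 in control, 72.7 to 85.0 in TAA and 47.4 to 57.9 in recovery libraries. Tcf7l2 was at 5.15 to 5.99, 3.19 to 3.81 and 6.22 to 7.60. The median of the core list was -0.12, and 0.51 with FPKM as deposited.

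Other feedback genes and targets did not move as a block. Of 10 genes, 8 passed the filter, of which 3 rose and 2 fell in the TAA group (4 and 0 with FPKM as deposited, 1 and 1 with a pseudocount of 1). Their median was 0.59 (1.19 with FPKM as deposited, 0.15 with quantile normalization). Notum, a secreted enzyme that inactivates Wnt ligands and a known pericentral target, was at 13.1, 15.8 and 10.5 scaled FPKM in control 1 to 3, 5.33, 3.58 and 4.41 in TAA 1 to 3, and 7.01, 8.98 and 6.72 in recovery 1 to 3. The groups were separate, with the recovery group in between. Notum fell in the TAA group with a log2 fold change of -1.54 (standard error 0.19, adjusted p = 0.000428 in limma), and the fold change was under 2 with FPKM as deposited. Sp5, a transcription factor gene induced by β-catenin, had 1.11 to 1.53 in control, 0.476 to 0.825 in TAA and 0.802 to 1.26 in recovery libraries. Its log2 fold change of -1.03 in the TAA group was under 1 in size without control 2 (-0.99), control 3 (-0.94), TAA 1 (-0.98) or TAA 2 (-0.88), or with FPKM as deposited, which ended the call.

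Ccnd1, which encodes cyclin D1 and answers to many growth signals beside Wnt, was at 5.40, 4.42 and 4.14 scaled FPKM in control 1 to 3, 72.6, 77.2 and 59.9 in TAA 1 to 3, and 4.98, 5.18 and 6.67 in recovery 1 to 3. It was high in each TAA library, and control and recovery libraries overlapped. It rose by 3.88 in the TAA group (standard error 0.14, adjusted p = 2.75e-06 in limma) and had a log2 fold change of -3.62 in the recovery group over the TAA group (standard error 0.14, adjusted p = 4.75e-06). Myc and Nkd2 also rose in the TAA group. Nkd1, a feedback inhibitor, had means of 1.47, 1.70 and 1.76 in the control, TAA and recovery groups. Tcf7 had means of 1.17, 2.38 and 1.24, and its TAA libraries (2.32 to 2.44) were above all others (0.848 to 1.59). Its log2 fold change in the TAA group was 0.99 (interval 0.54 to 1.44, adjusted p = 0.00355 in limma), just under the fold change of 2. Lef1 was at 0.0832 to 0.162, 0.0823 to 0.122 and 0.0491 to 0.185. With scaled FPKM, none of Nkd1, Tcf7 and Lef1 was a DEG.

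**Figure D4:**
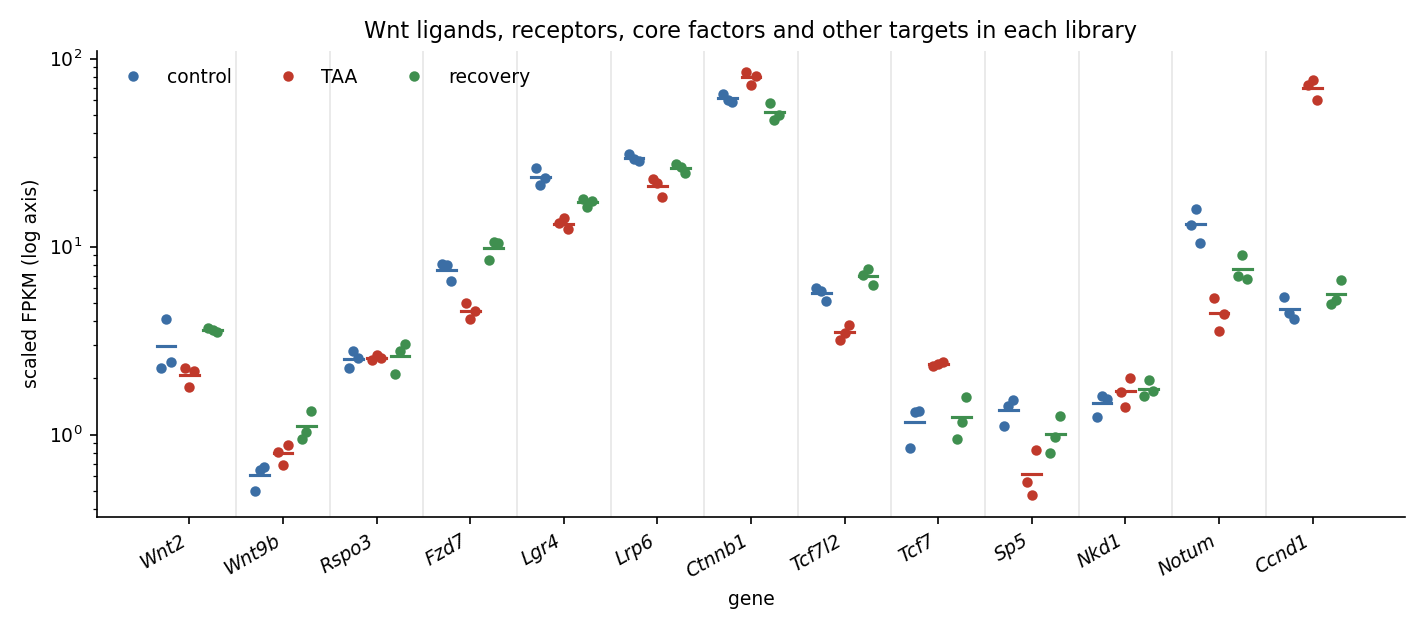
Scaled FPKM on a log axis of ligands (Wnt2, Wnt9b, Rspo3), receptors (Fzd7, Lgr4, Lrp6), core factors (Ctnnb1, Tcf7l2) and feedback or target genes, with a point for each library and a line for each group mean. Rspo3 overlaps in all groups at 2.11 to 3.02, whereas Ccnd1 is at least 59.9 in the TAA group and at most 6.67 in the others, and Notum is lowest in the TAA group.

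The rest of the hepatocyte program was measured for comparison. Of 12 other pericentral genes, 5 fell and 0 rose in the TAA group, with a median of -0.85. Of 13 periportal genes, 6 fell and 1 rose, with a median of -0.98. Of 7 pan-hepatocyte markers, 4 fell (Apoa1, Apob, Hnf4a and Serpina1c) and 0 rose, with a median of -1.11. The members' median of -0.79 was near these medians with scaled FPKM. With quantile normalization it was -0.94, against -0.07 for other pericentral genes, -0.13 for periportal genes and 0.00 for pan-hepatocyte markers. This scaling gives a gene that keeps its rank the same value in every library, so the 0.00 is no measured lack of change. With FPKM rescaled to the same sum in each library, the members' median was 0.02. It was then -0.02 for other pericentral genes, -0.16 for periportal genes and -0.29 for pan-hepatocyte markers. The order of the medians thus turned with the scaling. Among the genes of the 3 lists the largest fall was that of Cyp2e1, described next, and Slc1a2 and Oat were the members that fell further. With FPKM as deposited the medians were -0.21 for other pericentral genes, -0.34 for periportal genes and -0.48 for pan-hepatocyte markers, with 2, 4 and 1 genes lower. Quantile normalization gave 4, 4 and 0 lower genes, with 2 pan-hepatocyte markers higher, so the size of the shift in all 3 lists depended on the scaling.

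Cyp2e1, a pericentral cytochrome P450 that converts TAA to its toxic form, was at 4745, 4326 and 4157 scaled FPKM in control 1 to 3, 398, 309 and 348 in TAA 1 to 3, and 3041, 3031 and 3317 in recovery 1 to 3. The groups were separate, and the recovery group was nearer to the control group. Cyp2e1 fell by 3.65 on the log2 scale in the TAA group (standard error 0.14, adjusted p = 3.58e-06 in limma), a size between those of Glul and Oat. Nr1i3, a nuclear receptor for foreign compounds, was at 73.5 to 76.5, 10.4 to 12.8 and 40.8 to 54.5 in the 3 groups and fell in the TAA group with a log2 fold change of -2.72 (standard error 0.10, adjusted p = 2.75e-06). Avpr1a, a vasopressin receptor, also fell, with -1.60 (standard error 0.19, adjusted p = 0.000341 in limma), a call that FPKM as deposited ended, whereas Cyp1a2 was at 178 to 222, 141 to 168 and 209 to 294 and was no DEG. Of the periportal genes, Pigr fell from 351 to 379 in control to 42.0 to 50.2 in TAA libraries, and Asl and Pck1, of the urea cycle and gluconeogenesis, fell by 2.59 and 2.53. Cdh1, the epithelial cadherin that bile duct cells also express, was the periportal gene that rose, from 4.50 to 4.96 in control to 28.0 to 32.3 in TAA libraries, and it was still higher in the recovery group (9.30 to 10.4).

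**Figure D5:**
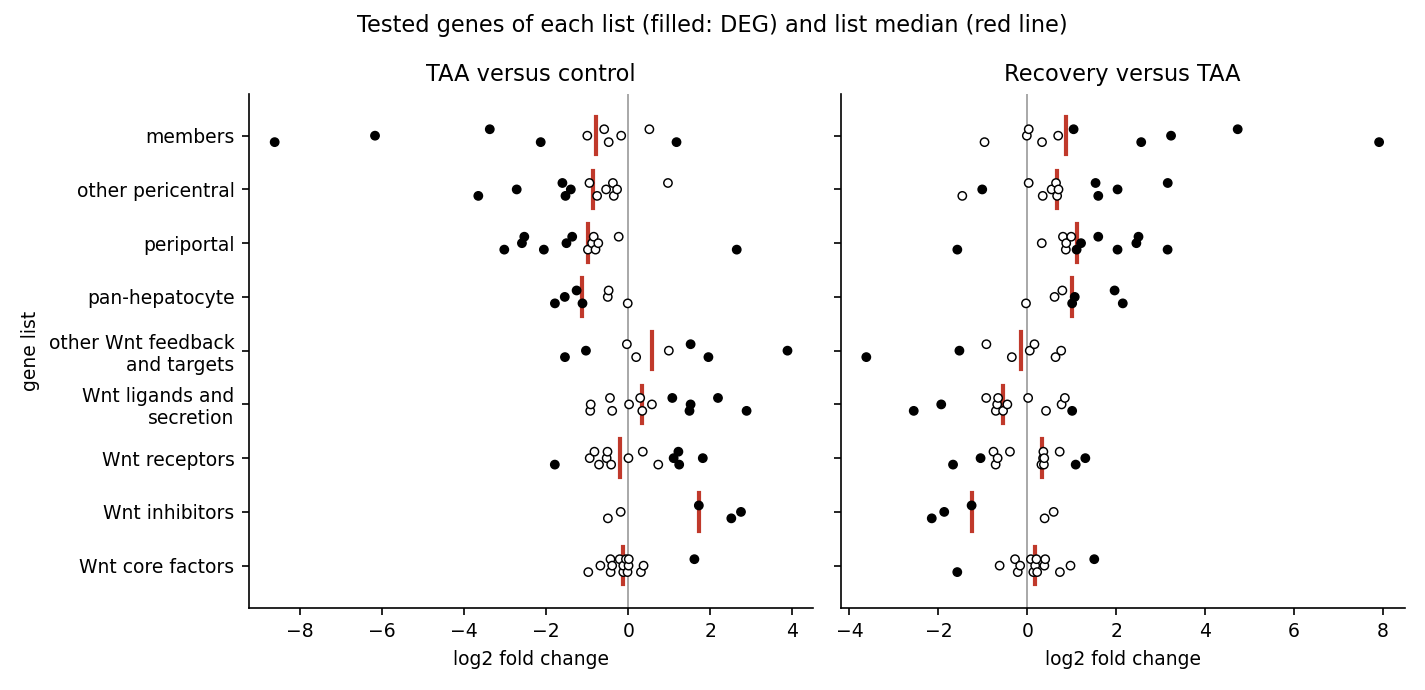
Log2 fold change of each tested gene of 9 lists (circles, filled for DEGs) and the median of each list (red line), for TAA versus control and Recovery versus TAA, 3 against 3 libraries each. With scaled FPKM, medians of the members (-0.79), other pericentral (-0.85), periportal (-0.98) and pan-hepatocyte genes (-1.11) are close in TAA versus control. The members spread widest, down to -8.62. In the same order, the medians are -0.16, -0.21, -0.34 and -0.48 with FPKM as deposited. They are -0.94, -0.07, -0.13 and 0.00 with quantile normalization, which fixes the value of a gene that keeps its rank, so the 0.00 is no measured lack of change.

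Genes of glutamine and ornithine handling that are not members moved both ways. Of 11 genes, 3 rose and 3 fell in the TAA group, with a median of -0.57 (0.07 with FPKM as deposited, and then 4 rose and 1 fell). With quantile normalization 2 rose and 1 fell, and with a pseudocount of 1, 1 rose and 3 fell. With FPKM rescaled to the same sum, 5 rose and 0 fell, with a median of 0.26, so that Otc, described below, was then no DEG. Aldh18a1, which starts proline synthesis from glutamate, was at 0.316, 0.525 and 0.513 scaled FPKM in control 1 to 3, 2.78, 2.55 and 2.69 in TAA 1 to 3, and 1.07, 0.680 and 0.671 in recovery 1 to 3. The TAA libraries were above all others, and it rose by 2.35 (standard error 0.20, adjusted p = 6.74e-05 in limma). Pycr1, which completes proline synthesis, rose as well, from 0.0119 to 0.0957 scaled FPKM across control libraries to 0.246 to 0.479 across TAA libraries, a call that was lost with a pseudocount of 1 and with quantile normalization. Otc, the urea cycle enzyme that takes ornithine, fell from 147 to 189 in control to 40.3 to 53.0 in TAA libraries (-1.79, standard error 0.14, adjusted p = 4.89e-05). The amino acid carrier Slc38a4, the most abundant gene of the list, was at 784 to 919, 283 to 340 and 586 to 641 in the 3 groups. The periportal glutaminase Gls2, which frees ammonia from glutamine, was at 108 to 128, 40.7 to 47.9 and 92.3 to 112.

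Markers of other liver cells moved with the TAA group, and their part in the members' values was not tested. All 5 cholangiocyte markers rose, and their summed scaled FPKM was 18.7, 15.7 and 20.9 in control 1 to 3, 442, 301 and 295 in TAA 1 to 3, and 27.9, 29.5 and 38.4 in recovery 1 to 3, mostly from Spp1. Of 7 stellate cell and myofibroblast markers 6 rose, with sums of 33.6, 39.1 and 41.0 in control 1 to 3, 259, 203 and 260 in TAA 1 to 3, and 31.7, 38.8 and 42.6 in recovery 1 to 3. Both sums were high in each TAA library, and the stellate sum of the recovery group overlapped with the control group. Col3a1 was the most abundant stellate marker, and no marker of either list was at 0 in any library. Of 5 macrophage markers 3 rose, with sums of 74.3 to 91.2, 144 to 202 and 96.1 to 141 in the 3 groups and Lyz2 as the most abundant. None of the 6 endothelial markers was a DEG in the TAA group by limma, and none of the 5 T and B cell markers, with sums of at most 3.17, led by Cd3e. Endothelial sums, led by Clec4g, were 49.2, 92.0 and 88.9 in control 1 to 3, 73.9, 55.0 and 63.8 in TAA 1 to 3, and 84.8, 88.1 and 96.9 in recovery 1 to 3. Control 1 was thus the lowest of all libraries, and control 2 and 3 were above every TAA library. The sum of T and B cell markers was also lowest in control 1 within its group, at 1.01 against 2.05 and 2.202. With FPKM as deposited 0 endothelial and 2 T and B cell markers were higher DEGs, and with FPKM rescaled to the same sum 2 and 4. The summed pan-hepatocyte markers, led by Alb, were 38302.5 to 42919.5 in control, 22720 to 30240 in TAA and 47723 to 50245 in recovery libraries.

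The mean of the centred log2 profiles of the 10 members was compared with each of the 10962 genes with a mean scaled FPKM of at least 1. Over the 9 libraries, Pearson's r to this mean was 0.999 for Slc1a2, 0.993 for Glul, 0.983 for Oat, 0.9754 for Rhbg, 0.946 for Tbx3, 0.876 for Znrf3, 0.765 for Lgr5, 0.360 for Rnf43, -0.409 for Axin2 and -0.935 for Slc13a3. The mean is led by the members with the largest changes, since no member was given less weight. Outside all lists, the 5 genes most like it were Aars (0.997), Cyp4a12b (0.994), Cyp2c54 (0.993), Ppp6r2 (0.993) and Vwa8 (0.993). Aars, an alanyl-tRNA synthetase gene, was at 33.5 to 35.9 scaled FPKM in control libraries, 20.5 to 22.2 in TAA libraries and 34.3 to 35.5 in the recovery group. With FPKM as deposited its TAA libraries (26.4 to 30.6) overlapped with control libraries (29.5 to 29.8), and the log2 ratio of their means turned from -0.06 to 0.13 with the same sum. Cyp4a12b, a fatty acid hydroxylase gene, was at 65.6 to 79.1, 1.69 to 2.65 and 67.6 to 90.4. Such likeness was common: 834 genes, or 7.61%, had an r of at least 0.95, and all libraries share the same split between the TAA group and the others.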

How the data were processed

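Liver RNA of 9 mice (3 per group) was analysed. The authors mapped reads to mm10 with HISAT2 2.2.1, counted fragments on genes with featureCounts 1.5.0-p3 and deposited FPKM per mouse. Library depth was fitted to the spacing of low FPKM. At the fitted depth, 62.6% to 69.4% of the same low values were whole fragment numbers within 0.08. By chance this is 16% at a depth not fitted to the values, and more at a fitted depth, so the 16% is no test of the depth. Exact counts were not used, and replicate spread is the error. Median-of-ratios factors, by which FPKM were divided, rest on the 14005 genes above 0 in all libraries. limma 3.58.1 (R 4.3.3, lmFit, eBayes with trend) compared the 6 libraries of each pair of groups, with Benjamini-Hochberg adjustment over all tested genes. It was also run on simulated data, and that outcome is not given here. Python 3.11.15 (pandas 2.3.3, numpy 2.4.6) made the tables. Members and lists were chosen with earlier results of these data known. Genes named from a list come from a rule, up to 4 DEGs with the largest change in the TAA group, the most abundant gene and preset genes, and not all of these are described. Other muscle and adrenal markers and Gsk3b were named after their values were seen. Pseudocounts, filters, scalings, moderation, a replicate block and left-out mice were varied. Tf was not found by symbol, and the glutamine and ornithine list was shortened by 1 gene after the values were seen. Small RNA libraries were not analysed here.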

Additional observations from a re-analysis of the deposited data

How the results depend on the processing

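With 3 mice per group, small differences in low genes are limited by replicate spread, and Slc1a2 differed 5.05 times between the lowest and highest TAA mouse. The number of members that were DEGs in the TAA group (5) was 5 or 6 under every alternative but FDR < 0.05 alone (8). In the recovery group over the TAA group (5) it was 4 to 7. Against the control group (1) it was 1 under other pseudocounts, scalings and moderation and with a mean FPKM of at least 1, but 0 without a filter on low values, where more genes are tested, 0 without any 1 mouse (range 0 to 0), where fewer samples are, and 2 at FDR < 0.05 alone. For single members, 148, 149 and 150 values under alternatives kept their direction and their side of the criteria in the 3 comparisons, and 6, 10 and 2 turned. Beside these, 6 values gained a call in the TAA group, 6 gained and 5 lost one in the recovery group over it, and 8 lost one against the control group. Between TAA and control libraries, log2 fold changes turned with FPKM as deposited for Lgr5 (0.13), Rnf43 (0.46) and Znrf3 (0.040), and with FPKM rescaled to the same sum in each library for Lgr5 (0.32), Rnf43 (0.65) and Znrf3 (0.23). In the recovery group over the TAA group they turned with FPKM as deposited for Axin2 (-0.52) and Znrf3 (-0.22), and with the same sum for Lgr5 (-0.032), Axin2 (-0.73) and Znrf3 (-0.42). These scalings leave the TAA group 0.64 or more higher. Near 0, single mice turned Axin2 over a range of -0.059 to 0.157, Rnf43 over -0.076 to 0.055 and, against the control group, Tbx3 over -0.068 to 0.131. Without both libraries with muscle or adrenal markers, an alternative chosen after seeing the data, Rnf43 was 0.066. Apob, a pan-hepatocyte DEG, turned with quantile normalization to 0.13 (TAA against control) and -0.23 (recovery against TAA), and the cause was not tested.

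The labels number the mice of each group 1 to 3. Same-numbered mice did not deviate together: over 9 pairs, r was -0.07 to 0.12, and in 2 of 9 pairs the mouse correlated best with its own number. With a replicate block, 5, 5 and 0 members were DEGs in the 3 comparisons, and over all genes 9 higher and 8 lower DEGs were found in the recovery group against the control group, in place of 82 and 58.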

Other observations

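Single values outside the comparisons stood out. Cldn2, which encodes a tight junction protein of pericentral hepatocytes, was at 0.000948 scaled FPKM in recovery 2, against 20.8 in recovery 1, 21.8 in recovery 3, 26.9 to 30.9 in the control group and 9.03 to 10.4 in the TAA group. Gsk3b, a kinase of the complex that breaks down β-catenin, fell into a low and a high level that did not follow the groups. It was at 6.04, 13.0 and 12.0 in control 1 to 3, 5.20, 13.8 and 12.6 in TAA 1 to 3, and 6.54, 5.95 and 13.1 in recovery 1 to 3. The low level thus held mouse 1 of each group and recovery 2, and the cause was not tested. The macrophage marker Marco was at 19.6 in recovery 3, against 3.83 and 5.19 in recovery 1 and 2. Gsk3b was chosen after its values were seen, while the rule for named genes covers Cldn2 and Marco.

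Teddm2, on the opposite strand, shares 116 exonic bases with Glul, or 3.49% of the exonic bases of Glul. It was at 16.9, 16.7 and 13.9 scaled FPKM in control 1 to 3, 1.60, 1.38 and 1.29 in TAA 1 to 3, and 12.1, 11.4 and 11.4 in recovery 1 to 3. Whether strand was used in counting is not given in the sources used here, so reads from the shared bases cannot be assigned to either gene. Cyp21a1, on the adrenal cortex list, was at 3.07, 4.09 and 5.99 in TAA 1 to 3 and 0.0654 to 0.158 in the control group, while Cyp11a1 and Cyp11b1 were at 0 in all TAA libraries.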
